A study of Mus musculus with 8 samples.

Results

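The data concern 35 genes whose names mark them as nuclear-encoded subunits of respiratory complex I, the NADH:ubiquinone oxidoreductase of the mitochondrial inner membrane. The genes were taken by symbol from a fixed list of Nduf genes, through the RefSeq transcript that each probe of the array is annotated with. All 35 had at least 1 probe, 41 probes in all, and all 35 were among the 17531 genes or unnamed transcripts tested. Liver RNA of mice carrying a homozygous mutation of Pus1 was compared with that of wild-type mice. Pus1 encodes pseudouridine synthase 1, which isomerises uridines of tRNAs and some further RNAs to pseudouridine, in mitochondria too. Both genotypes were on the C57BL/6J strain after 5 generations of backcrossing, and the animals were 14 to 16 weeks old. There were 4 mutant livers, 2 female and 2 male, and 4 wild-type livers, also 2 female and 2 male. Each of 4 2-colour arrays paired a mutant liver with a wild-type one of its sex, females on arrays 1 and 2 and males on arrays 3 and 4, with the dyes exchanged between both arrays of a sex. Livers are numbered here by their array. The kind of mutation, and where the Pus1 probe lies relative to it, are not given in the sources used here.

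Complex I takes electrons from NADH, passes them through a flavin and a chain of iron-sulfur clusters to ubiquinone, and moves protons across the inner membrane as it does so. It has an L shape, with a matrix arm that carries the redox groups and a membrane arm that carries the proton channels. The core subunits of the matrix arm are made in the cytosol from nuclear genes, while core subunits of the membrane arm are made inside the mitochondrion from mitochondrial DNA, and a shell of accessory subunits surrounds both arms. Liver, with its high rate of fatty acid oxidation, gluconeogenesis and urea synthesis, depends on the NAD+ that complex I regenerates. Of the genes measured, 6 encode core subunits, 9 accessory subunits of the matrix arm and 19 accessory subunits of the membrane arm. Ndufa4 makes up the total and keeps a complex I name, but its protein is now placed in complex IV. The mitochondrially encoded subunits were not analysed here.

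Promoters are shown for the pair of genes with the smallest genotype p-values, Ndufs8 and Ndufa11, though neither passed the threshold given below. A link between promoter sequence and ratio was not tested. Each line gives the 250 bases before the annotated transcript start, 5′ to 3′ on the strand of the gene, from RefSeq with the build GRCm38.p6. Ndufs8 lies on the minus strand, and the window is chr19:3912775-3913024. Ndufa11 lies on the plus strand, and the window is chr17:56717512-56717761. Capitals mark CCAAT in the promoter of Ndufs8, where it occurs 3 times, and overlapping matches to GCATGCG, the core of the motif of the transcription factor NRF1, in that of Ndufa11.
Ndufs8: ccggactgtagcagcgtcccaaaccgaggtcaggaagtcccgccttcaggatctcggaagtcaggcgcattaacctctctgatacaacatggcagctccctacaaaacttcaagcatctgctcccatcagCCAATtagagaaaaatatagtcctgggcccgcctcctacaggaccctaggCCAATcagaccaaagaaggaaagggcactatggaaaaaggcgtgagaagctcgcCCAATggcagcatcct
Ndufa11: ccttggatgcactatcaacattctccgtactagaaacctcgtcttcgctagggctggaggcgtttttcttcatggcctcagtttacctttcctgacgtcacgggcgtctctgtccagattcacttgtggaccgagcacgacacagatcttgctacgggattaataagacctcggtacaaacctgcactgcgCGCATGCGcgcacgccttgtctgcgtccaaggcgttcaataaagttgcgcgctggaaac

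Both of these promoters had a GC content of 53.2%. The promoter table held 32 of the 35 genes, and motifs were searched on both strands of the 250-base window. A gene was counted if any of its promoters held the motif. GCATGCG occurred for 3 of the 32 genes, Ndufa11, Ndufa6 and Ndufa8 (9.38%), against 3.43% of all 27025 genes with a promoter. ATGGCGG, a core of the YY1 motif, occurred for Ndufa1, Ndufa5 and Ndufa7 (9.38%), against 2.58% of those 27025 genes. CCGGAAG, a core of ETS-family sites, occurred for Ndufb6, Ndufb7 and Ndufs3 (9.38%), against 7.83% of the 27025. CCAAT occurred for 10 of the 32, against 37.5% of the 27025. The median GC content was 57.6% for the subunit genes and 52.4% for all genes. Motif matches describe letters and not bound sites, and the motifs were not shared by a majority of the subunit promoters.

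The livers were checked first. Pus1 was well above background in 0 of 4 mutant livers and in 4 of 4 wild-type livers, and its signal was at least 4.10-fold lower in mutants (log2 ratio −2.03, adjusted p = 0.0567 in limma, which misses the threshold). None of the 35 subunit genes lies on chromosome 5, where Pus1 is. All 8 hepatocyte markers, among them albumin and transthyretin, were well above background in all 8 livers. Between 36.8% and 44.0% of the non-control spots were well above background in a liver. With 4 arrays, the precision of each value below is limited.

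All 35 subunit genes were well above background in all 8 livers, and none of their probes was saturated. Their median intensity (log2) was 14.4, against 9.03 for all genes tested, and 5.82% of all genes were brighter than that. The shares of all genes given below are not matched for brightness. A level below is a log2 signal after normalisation within and between arrays, and it can be set against other livers for the same gene only, since the brightness of a spot also depends on its probe. A ratio is the log2 of mutant over wild type on 1 array. Fitted ratios are from limma over all genes, with the dye as a covariate, and are given ± SE over 4 arrays. The threshold was a Benjamini-Hochberg adjusted p of 0.05 over all genes tested.

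No subunit gene passed that threshold between mutant and wild-type livers. Most fitted ratios were small and above 0, and the highest were those of Ndufs8, Ndufa10, Ndufa11 and Ndufc2. In limma, 0 of 35 genes passed, with adjusted p-values between 0.541 and 0.988, and 0 of all 17531 genes passed (0%). At an unadjusted p of 0.05, 4 of 35 were higher in mutants (11.4%), against 4.75% of all genes, and 0 were lower, against 4.16% of all genes. The median fitted ratio of the 35 was 0.11, and that of all genes −0.01. The median of the 35 was 0.04 without array 1, 0.17 without array 3 and 0.22 with median centring, where that of all genes was 0.03. A fit without 1 array leaves another alone in its dye orientation, which then weighs as much as both others together. That is array 3 without array 1, and array 1 without array 3. The median ratio of the 35 was −0.04 on array 3 and 0.17 on array 1. The fitted ratio was above 0 for 29 of 35 (82.9%), against 47% of all genes. That number was 30 with the scanner's processed signals, 33 with the deposited series table, 35 with arrays only centred on their medians, and 22 without array 1. Without array 4, Ndufs8 (0.71, adjusted p = 0.0290) and Ndufa10 (0.69, adjusted p = 0.0315) passed the threshold, as did 8.5% of all genes. Without array 2, Ndufs8 had 0.41 (adjusted p = 0.963) and Ndufa10 had 0.25 (adjusted p = 0.9997). The number at an unadjusted p of 0.05 was 0 without array 1, 1 without array 2, 1 without array 3 and 5 without array 4. It was also 0 when the shared array was not modelled as a block. In bulk liver, a change in the number of cells of a type and a change in RNA per cell cannot be told apart.

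**Figure D1:**
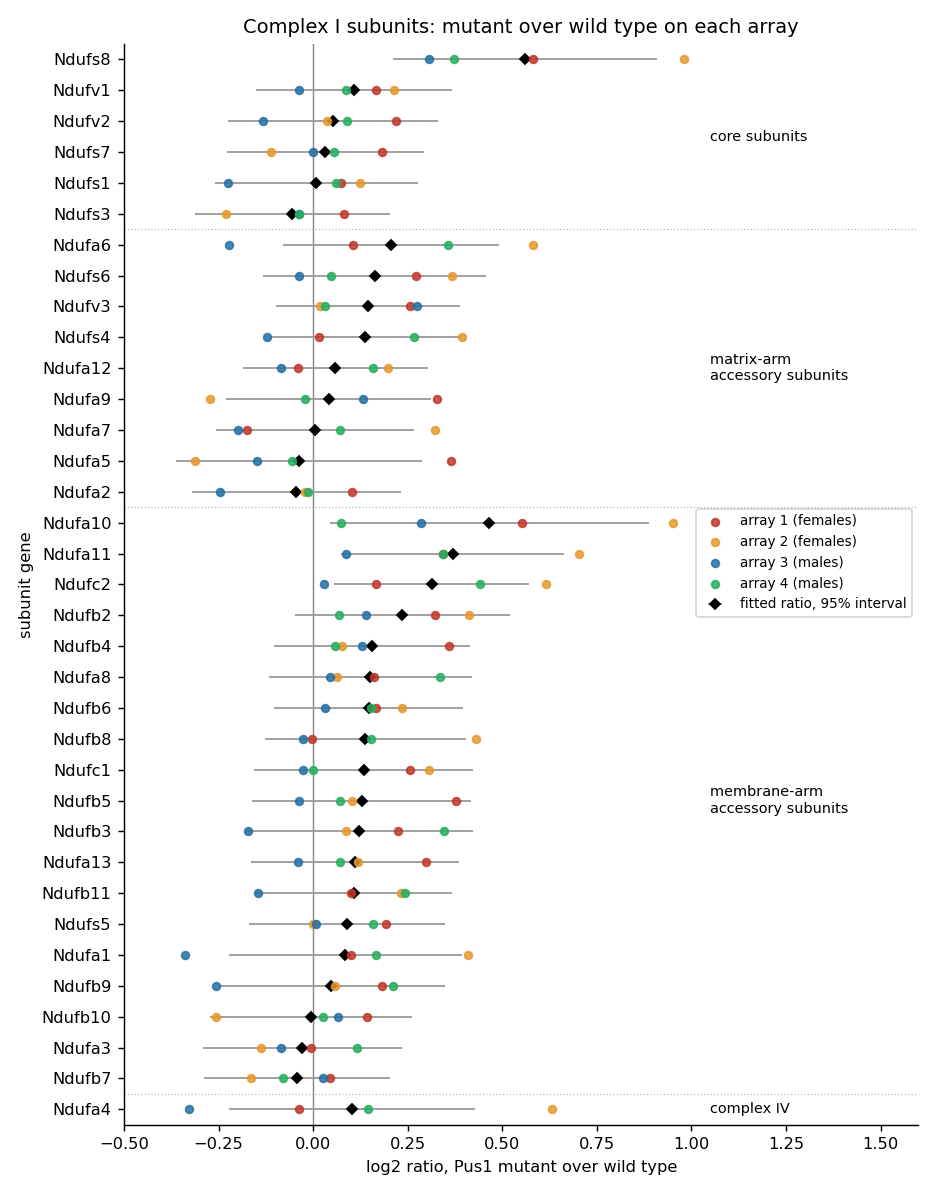
Log2 ratio of mutant over wild type for each of the 35 subunit genes, grouped by the place of the protein. Coloured points are the 4 arrays, and black diamonds with lines are the fitted ratios with their 95% intervals; the intervals of Ndufs8, Ndufa10, Ndufa11 and Ndufc2 lie above 0, and the fitted ratios of 29 genes do.

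Among the core subunits, which carry or hold the redox groups, 5 of 6 fitted ratios lay above 0, against 47% of all genes. Their median was 0.04. Ndufs8 encodes an iron-sulfur subunit near the ubiquinone site. Its level was 11.43, 11.41, 11.01 and 10.52 in mutant livers 1 to 4, against 10.85, 10.43, 10.71 and 10.14 in wild-type livers 1 to 4. The groups overlap, since mutant 4 lay below wild types 1 and 3, but on each array the mutant was the higher of the pair, by 0.58, 0.98, 0.31 and 0.37. The fitted ratio was 0.56 ± 0.14, a 1.47-fold higher signal (adjusted p = 0.541), with a 95% interval from 0.21 to 0.91. It was the highest of the 35.

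The other 5 core genes had fitted ratios between −0.06 and 0.11. Ndufs3, part of the ubiquinone-binding module, had levels of 14.41, 14.25, 14.48 and 14.36 in mutants, against 14.33, 14.47, 14.52 and 14.40 in wild types. The livers of both genotypes were intermixed, and the fitted ratio of −0.06 ± 0.10 was the lowest of the 35. Ndufv1, which binds NADH and the flavin, had a fitted ratio of 0.11 ± 0.10. Its partner in that module, Ndufv2, had 0.05 ± 0.11. Ndufs7, whose iron-sulfur cluster hands electrons to ubiquinone, had 0.03 ± 0.10, and Ndufs1, which holds several of the clusters, had 0.01 ± 0.11. Each of these lay within about 1 SE of 0.

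Of the 9 accessory subunits of the matrix arm, 7 had a fitted ratio above 0, against 47% of all genes. The median of the 9 was 0.06, with a range from −0.04 to 0.21. Ndufa6, a protein of the LYR family that binds mitochondrial acyl carrier protein, stood at the top of that range. Its level was 14.03, 14.13, 13.54 and 13.61 in mutants, against 13.93, 13.55, 13.76 and 13.26 in wild types. Mutants 1 and 2, both female, were the highest livers, and the male pair on array 3 had the opposite order to the other 3 pairs. The fitted ratio was 0.21 ± 0.11 (adjusted p = 0.561). Ndufv3, a small subunit of the NADH-oxidising module, was the 1 gene of these 9 with the mutant higher on all 4 arrays (11.1%, against 8.99% of all genes), by 0.26, 0.02, 0.28 and 0.03. Its dimmer second probe gave −0.09 on array 1 and a fitted ratio of −0.01. By the brighter probe, the level of Ndufv3 was 15.37, 15.32, 15.88 and 15.55 in mutants, against 15.11, 15.30, 15.61 and 15.52 in wild types, so the groups overlap.

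The zinc-binding Ndufs6 had a fitted ratio of 0.16 ± 0.12, and Ndufs4, whose human counterpart is mutated in some cases of Leigh syndrome, had 0.14 ± 0.10. Fitted ratios were 0.06 ± 0.10 for Ndufa12, 0.04 ± 0.11 for Ndufa9 and 0.01 ± 0.10 for Ndufa7. Ndufa2, which has a thioredoxin-like fold, had levels of 15.61, 15.47, 15.36 and 15.38 in mutants, against 15.51, 15.49, 15.60 and 15.40 in wild types. Ndufa5, a small subunit of the same arm, had 15.12, 14.97, 14.78 and 14.72 in mutants, against 14.76, 15.28, 14.93 and 14.77 in wild types. For both genes the mutant was the higher on array 1 alone, and both fitted ratios were −0.04. The sign of neither was stable: under the alternatives tried, the ratio of Ndufa2 turned above 0 in 4 and that of Ndufa5 in 5 of 13.

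The accessory subunits of the membrane arm make up 19 of the 35 genes, and their median fitted ratio was 0.13. Fitted ratios lay above 0 for 16 of 19, against 47% of all genes, and 8 of 19 were higher in the mutant on all 4 arrays, against 8.99% of all genes. Ndufa11, a membrane-spanning subunit at the junction with complex III in the respirasome, had levels of 11.54, 11.54, 11.45 and 11.11 in mutants, against 11.20, 10.84, 11.37 and 10.76 in wild types. Only mutant 4 lay within the range of the wild types. The ratios were 0.34, 0.70, 0.09 and 0.34, and the fitted ratio was 0.37 ± 0.12 (adjusted p = 0.541).

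Ndufa10, which resembles nucleoside kinases and sits on the matrix face of the membrane arm, had levels of 11.56, 11.50, 11.15 and 10.67 in mutants, against 11.01, 10.55, 10.86 and 10.59 in wild types. The female pairs differed by 0.55 and 0.95 and the male pairs by 0.28 and 0.07, and mutant 4 lay among the wild types. The fitted ratio was 0.47 ± 0.17 (adjusted p = 0.541). Ndufc2, a small membrane subunit, had levels of 14.06, 14.07, 13.57 and 13.40 in mutants, against 13.89, 13.46, 13.54 and 12.96 in wild types. The groups overlap, and the pair on array 3 differed by 0.03 only. Its fitted ratio was 0.31 ± 0.10 (adjusted p = 0.541).

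Ndufb4, another membrane subunit at the contact with complex III, was the only one of the 35 genes whose groups did not overlap (2.86%, against 1.34% of all genes with all mutants above all wild types). Its level was 14.88, 14.79, 14.89 and 14.77 in mutants, against 14.52, 14.72, 14.76 and 14.71 in wild types. The gap between the groups was small, and the pair on array 1 differed most. The fitted ratio was 0.16 ± 0.10 (adjusted p = 0.607). A second, dimmer probe for Ndufb4 gave 0.16 ± 0.11. By that probe the groups overlap, with mutant 2 at 14.02 and wild type 3 at 14.08. Ndufb2 had levels of 13.54, 13.44, 13.63 and 13.47 in mutants, against 13.22, 13.02, 13.49 and 13.40 in wild types. Both female wild types were lower than the other 6 livers, and the fitted ratio was 0.24 ± 0.11 (adjusted p = 0.543).

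**Figure D2:**
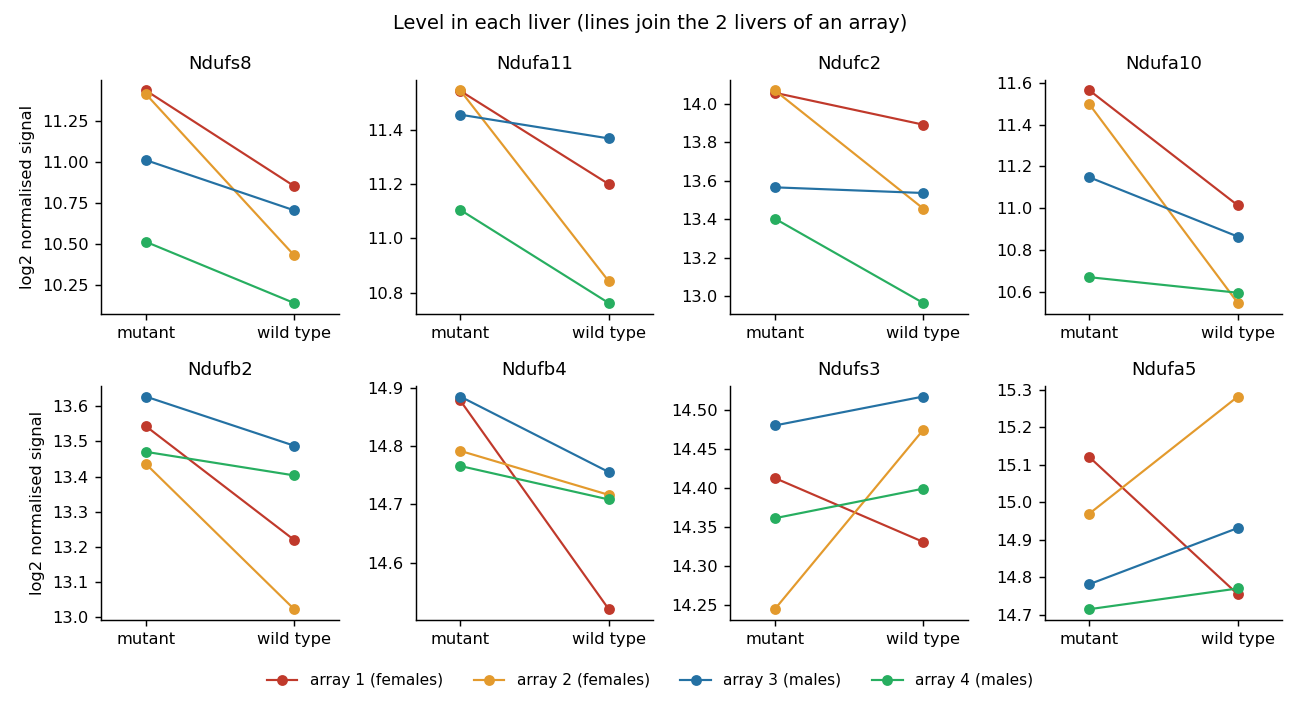
Level (log2 normalised signal) of 8 subunit genes in each liver, mutants at the left and wild types at the right of each panel, with lines joining the livers of 1 array; each panel has its own axis, which does not start at 0. All 4 lines run down from mutant to wild type for Ndufs8, Ndufa11, Ndufc2, Ndufa10, Ndufb2 and Ndufb4, while the lines of Ndufs3 and Ndufa5 run both ways.

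Across all groups, 10 of 35 genes were higher in the mutant on all 4 arrays (28.6%), against 8.99% of all genes, and 0 were lower on all 4, against 8.68% of all genes. Besides those described, the 10 include Ndufb6, Ndufs5 and Ndufa8. Ndufb6 had levels of 13.32, 13.09, 13.24 and 12.92 in mutants, against 13.15, 12.85, 13.21 and 12.77 in wild types. Its dimmer second probe gave −0.04 on array 3, so its place among the 10 depends on the probe. Ndufs5, which lies on the intermembrane-space side, had 14.34, 14.28, 14.34 and 14.30 in mutants, against 14.15, 14.28, 14.33 and 14.14 in wild types. In both genes the groups overlap, and the fitted ratios were 0.15 ± 0.10 and 0.09 ± 0.10. Ndufs5 differed by 0.00 on array 2 and by 0.01 on array 3, so its place among the 10 rests on very small ratios. All mutants lay below all wild types for 0 of 35 genes, against 0.85% of all genes.

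Ndufa8, also an intermembrane-space subunit, had levels of 10.77, 12.42, 12.54 and 12.48 in mutants, against 10.61, 12.36, 12.50 and 12.14 in wild types. Both livers of array 1 stood far below the other 6, while their ratio, 0.16, lay among those of the other arrays. The gene had 1 spot per array, and that spot carried no mark on array 1, where its median signal was 3803 in red and 1345 in green, against 5288 to 9459 in red and 2860 to 4903 in green on the other arrays. The fitted ratio was 0.15 ± 0.11 (adjusted p = 0.618).

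Of the other membrane-arm genes, Ndufb7 had levels of 15.31, 15.36, 15.48 and 15.36 in mutants, against 15.27, 15.53, 15.46 and 15.44 in wild types, with a fitted ratio of −0.04 ± 0.10. The livers of both genotypes were intermixed. Ndufa3 and Ndufb10 also had ratios below 0, of −0.03 ± 0.11 and −0.01 ± 0.11. The remaining 8 genes, Ndufb8, Ndufc1, Ndufb5, Ndufb3, Ndufa13, Ndufb11, Ndufa1 and Ndufb9, had fitted ratios between 0.05 and 0.14, none past the threshold. Ndufa4, of complex IV, had 0.10 ± 0.13, with 0.63 on array 2 and −0.33 on array 3.

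The arrays differed in where the subunit genes lay. Their median ratio was 0.17 on array 1 and 0.12 on array 2, both of females, and −0.04 on array 3 and 0.09 on array 4, both of males. The medians of all genes on the same arrays were 0.00, −0.05, 0.02 and −0.02. On arrays 1, 2 and 4, 30, 27 and 30 of 35 ratios were above 0, against 50.2%, 46.1% and 47.2% of all genes. On array 3, 14 of 35 were above 0 (40%), against 53.2% of all genes. For 23 of the 35 genes array 3 gave the lowest of the 4 ratios, and array 2 gave the highest for 17. Ratios also spread most on array 2, with an SD of 0.33 over the 35 genes, against 0.16, 0.16 and 0.13 on arrays 1, 3 and 4, and the same held for all genes, with 0.62 on array 2 against 0.35, 0.31 and 0.27.

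**Figure D3:**
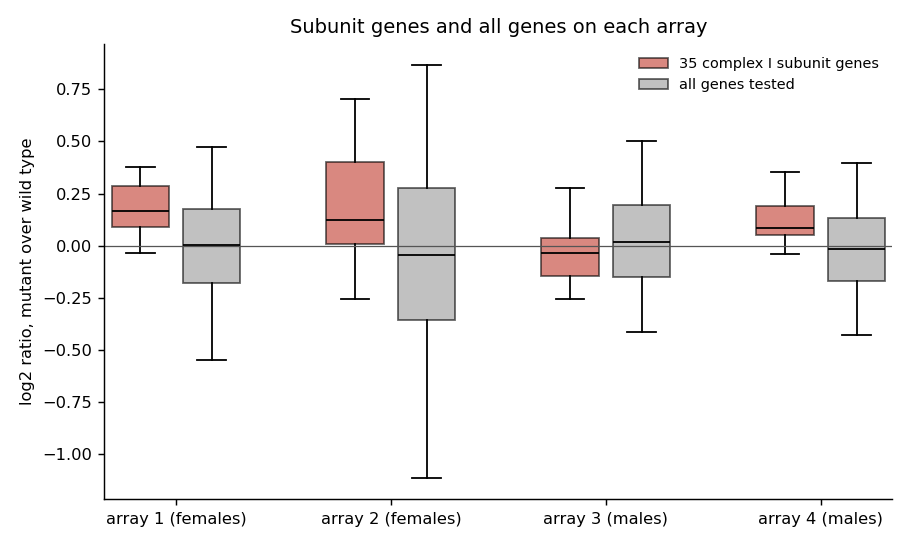
Log2 ratio of mutant over wild type on each array for the 35 subunit genes (left box of each pair) and all genes tested (right box). Boxes span the quartiles, lines mark the median and whiskers reach the 5th and 95th percentiles; the subunit medians are 0.17, 0.12, −0.04 and 0.09 on arrays 1 to 4.

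By liver, mutant 1 held the highest level of a gene most often, for 14 of 35 genes, followed by mutant 2 for 8, and wild type 4 held the lowest for 19. The median deviation of the 35 genes from their mean over the 8 livers was 0.16, 0.09, 0.06 and −0.05 in mutants 1 to 4, against −0.03, −0.08, 0.07 and −0.15 in wild types 1 to 4. Mutant 4 and wild type 4, on the same array, were the lowest of their groups, and wild type 3 lay above mutants 3 and 4.

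Markers of resident macrophages also had fitted ratios above 0 in these livers, and those of other cell types varied. Of 12 Kupffer cell markers, 11 were tested, all but Cd68, with a median fitted ratio of 0.66. All 11 were higher in the mutant on all 4 arrays, against 8.99% of all genes. In limma 0 of them passed the threshold and 11 were higher at an unadjusted p under 0.05, against 4.75% of all genes. Their summed normalised signal lay between 46798 and 69499 in mutants, against 26896 to 52600 in wild types. Such a sum leans on the brightest probes of a list, here those of Cd5l and Csf1r, and does not weigh the markers alike. Of 6 neutrophil markers 4 were tested, all with a fitted ratio above 0, against 47% of all genes. Their median was 0.96, from 0.02 for Elane to 1.63 for S100a9. Of the 4, 1 was higher in the mutant on all 4 arrays, against 8.99% of all genes. On array 1, 2 of the 4 were above 0, while S100a8 had −0.09 and S100a9 −0.19. The summed signal of the 4 was 5168 to 7450 in mutants, against 2123 to 5549 in wild types. Hepatocyte markers had a median ratio of 0.03, with 4 of 8 above 0, against 47% of all genes. Their summed signal was 1653900 to 2066630 in mutants, against 1535650 to 2326470 in wild types. Of the lymphocyte markers, 1 of 3 had a fitted ratio above 0 (median −0.12), against 47% of all genes. For sinusoidal endothelium it was 2 of 6 (−0.07) and for red cells 1 of 4 (−0.12). For stellate cells it was 4 of 5 (0.08) and for cholangiocytes 2 of 3 (0.02). The part of these cell types in the ratios of the subunit genes was not tested.

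A second probe was available for 6 of the 35 genes. Fitted ratios were close for Ndufb11, at 0.11 from the brighter and 0.10 from the dimmer probe. They were 0.15 and 0.32 for Ndufb6, and 0.15 and −0.01 for Ndufv3. The probes of Ndufa5 differed in sign, at −0.04 and 0.07. The dimmer probe of Ndufb5 gave 1.58 on array 2, where the brighter gave 0.10. RefSeq also lists the near copies Ndufb4b, Ndufb4c, Ndufa11b, Ndufs6b, Ndufs5-ps and Ndufa12-ps, and a probe may bind their transcripts too, so values for Ndufb4, Ndufa11, Ndufs6, Ndufs5 and Ndufa12 are uncertain in that respect.

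Between the sexes, no subunit gene passed the threshold either, and 23 of the 35 fitted differences lay on the side of a lower signal in males. No array held both sexes, so this comparison runs between arrays, on single-channel values with a correlation for the shared spot. Of 35 genes, 0 passed in limma, with adjusted p-values from 0.250 to 0.994, against 0.211% of all genes. At an unadjusted p of 0.05, 2 were lower in males (5.71%), against 7.81% of all genes, and 0 were higher, against 8.61% of all genes. The median difference, male over female, was −0.09 for the 35 genes and 0.00 for all genes, and 12 of 35 differences were above 0 (34.3%), against 50.4% of all genes. The median of the 35 was −0.05 without array 1, −0.19 without array 3 and −0.03 without array 4.

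The pair with the smallest p-values were Ndufs1 and Ndufc2. Ndufs1 had levels of 12.76 and 12.81 in male mutants and 12.98 and 12.75 in male wild types, against 13.29 and 13.39 in female mutants and 13.22 and 13.27 in female wild types. All males lay below all females, a pattern found for 1 of 35 genes against 12% of all genes. The difference was −0.46 ± 0.15 (adjusted p = 0.250). Ndufc2, whose levels are given above, differed by −0.50 ± 0.18 (adjusted p = 0.275), with wild type 2 the only female below the highest male. Ndufa6 followed with −0.37 ± 0.15 (adjusted p = 0.318).

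In the other direction, Ndufv3 was the only gene with all males above all females, against 12.6% of all genes. The difference was 0.36 ± 0.15 (adjusted p = 0.310). Ndufb2 had 0.19 ± 0.15. Ndufa8 had the highest difference, 0.87 ± 0.54 (adjusted p = 0.476), which rests on the pair of low livers on array 1: it was 0.03 without that array. Without array 2 it was 1.72 and passed the threshold (adjusted p = 0.0176), as did 7.11% of all genes there. With no term for the shared array, Ndufs1 passed (adjusted p = 0.0293), as did 18.5% of all genes. The X-linked Ndufa1 and Ndufb11 had differences of −0.16 ± 0.17 and −0.19 ± 0.17. The share of probes well above background was 35.9% to 37.0% in males and 41.0% to 42.8% in females. Red cell markers had a median difference, male over female, of 2.10, with 4 of 4 above 0, against 50.4% of all genes. Hepatocyte markers had −0.46, with 1 of 8 above 0. The other marker lists had medians from −0.24 (cholangiocyte) to 0.28 (lymphocyte). The part of that share and of these cell types in the differences of the subunit genes was not tested.

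**Figure D4:**
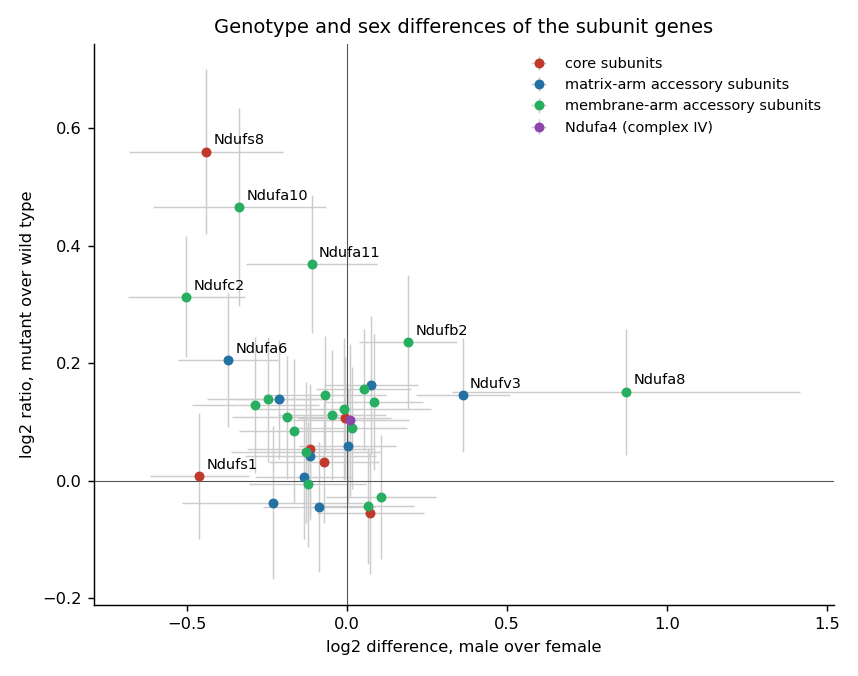
Fitted genotype ratio (log2, mutant over wild type) against fitted sex difference (log2, male over female) for the 35 subunit genes, coloured by place in the complex, with bars of ± 1 SE. Ndufs8, Ndufa10 and Ndufc2 lie at the upper left, above 0 for genotype and below 0 for sex, and Ndufa8 lies far to the right with a long horizontal bar.

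The genotype ratio was set against sex to ask whether the mutation acted alike in females and males. No gene passed the threshold in limma: 0 of 35 did, with adjusted p-values from 0.824 to 0.997, and 0% of all genes. At an unadjusted p of 0.05 there were 0 of 35, against 5.83% of all genes. The effect in females was above that in males for 28 of 35 genes (80%), against 46.2% of all genes, and the median difference, female minus male effect, was 0.14 for the 35 genes and −0.03 for all genes. Ndufa10 had the smallest p, with a mean ratio of 0.75 in females and 0.18 in males and a difference of 0.57 ± 0.25 (95% interval −0.09 to 1.24, adjusted p = 0.824). Ndufs8 came next, with 0.78 in females and 0.34 in males and a difference of 0.44 ± 0.22 (adjusted p = 0.836). This fit leaves 1 residual degree of freedom, and the interval of each difference is wide.

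Genes that serve complex I from outside were also read from the same fits. Of 17 assembly factors, 16 were tested, 0 passed, and 12 had a fitted ratio above 0 (75%, against 47% of all genes), with a median of 0.06. At an unadjusted p of 0.05, 1 of the 16 was higher in mutants, Ndufaf2, against 4.75% of all genes. Ndufaf2, a chaperone of late assembly, had levels of 10.38, 10.32, 9.90 and 9.79 in mutants, against 9.96, 9.80, 9.69 and 9.33 in wild types. On each array the mutant was the higher, by 0.43, 0.51, 0.21 and 0.46, and the fitted ratio was 0.40 ± 0.10 (adjusted p = 0.541). Nubpl, which delivers iron-sulfur clusters to the complex, had 0.44 ± 0.21, with 1.29 on array 2 alone, and Ndufaf3 had 0.39 ± 0.16.

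Of 10 genes for other entries of electrons into the ubiquinone pool and for NADH exchange, 9 were tested, 0 passed and 6 had a fitted ratio above 0, against 47% of all genes, with a median of 0.00. Dhodh, the pyrimidine synthesis enzyme that reduces ubiquinone, had 0.33 ± 0.11 (adjusted p = 0.541), with the mutant higher on all 4 arrays. Sdhd, a membrane anchor of complex II, had 0.16 ± 0.18, and Etfdh, which brings in electrons from fatty acid oxidation, had 0.13 ± 0.15. Of 9 regulators of mitochondrial biogenesis 8 were tested, 0 passed, and 4 lay above 0, with a median of −0.02. Gabpb1, a subunit of the ETS-family factor NRF2/GABP, had −0.15 ± 0.11 and was lower in the mutant on all 4 arrays. Tfam, which packages and transcribes mitochondrial DNA, had 0.18 ± 0.13. Ppargc1a, a coactivator of mitochondrial gene expression, had −0.28 ± 0.22, with 0.87 on array 3 and −1.05 on array 2.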

How the data were processed

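RNA of frozen livers was hybridised to 2-colour Agilent arrays. Per the submitters' processing notes, the array files were made with Agilent Feature Extraction 10.7.3.1. Per the file headers, they hold an intensity on a linear scale per spot and channel (median pixel brightness of the spot and its local background, and a processed signal), and other columns with marks of 0 or 1 for spots well above background, saturated or outlying. The deposited series table holds log2 values, whose scale, centring and direction are not given in the sources used here; its ratios correlated at 0.996 to 0.998 with those of the processed signals, and its medians per sample ran from −0.0135 to 0.0150. There are 68 further columns of per-sample values that were not used.

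Signals were corrected with normexp (offset 50) and normalised by loess within arrays, with control spots at weight 0 and marked spots left out, in limma 3.58.1 under R 4.3.3 (data.table, version 1.17.8, read the files). The spots' median signals were used, since these are the spot signals that the files hold. Of 55681 probes, 22031 were well above background in at least 4 of 8 livers, and the brightest probe stood for a gene. This gave 17531 tested, 11852 with a symbol. Ratios were fitted with genotype and dye, moderated by empirical Bayes. Levels and the sex fit used Aquantile normalisation and a within-spot correlation of 0.793; 21 genes with a missing value on an array were left out of the sex fit, which held 17510. In fits without 1 array, the same correlation was kept. The replicate number is the array, so it pairs the livers; deviations from the genotype means correlated within pairs at 0.685, 0.176, 0.560 and 0.646 across genes.

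The subunit genes, lists and rules were chosen with earlier results of these data known. Values in every liver are given for the 6 highest and 4 lowest genes by genotype p, those with 1 sign on all 4 arrays, and, for sex and its interaction, the 3 and 2 of smallest p. From each further list at most 3 genes are named. Symbols came from matching RefSeq transcripts, which named 27656 probes. Promoters are from RefSeq (GRCm38.p6). The file headers name mm9, so no other coordinates are given. Plots were made in Python 3.11.15 using matplotlib 3.10.9. The fits were tested on simulated data.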

Additional observations from a re-analysis of the deposited data

Results flagged for a closer look

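Ndufa8 had a mutant level of 10.8 (log2 normalised signal) in mutant 1, far from the other 3 mutants, at 12.4 to 12.5; the gap was 0.932 of the group's range. The wild-type liver on the same array was low too, at 10.6. Ndufb3 had a mutant level of 13.6 in mutant 4, against 13.67 to 13.69 in the other mutants, a gap of 0.838 of a narrow range. Of 105 groups of 4 livers or arrays examined, 2 stood out in this way, against 5.25 that chance gives at about 1 in 20.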

How the results depend on the processing

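The count of subunit genes past the threshold for genotype was 0 under every alternative except the fit without array 4. Leaving out 1 array gave 0 to 2 subunit genes and 0 to 1490 of all genes. Without array 4, Ndufs8 (0.71, adjusted p = 0.0290) and Ndufa10 (0.69, adjusted p = 0.0315) passed, as did 8.5% of all genes, with array 2 then alone in its dye orientation. The count of all genes past the threshold was 1 with median centring, 1 with no filter on dim probes, 1 with no dye coefficient, 2 with no replicate block and 3 with the replicate block as a random effect.

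At an unadjusted p of 0.05, the 4 subunit genes became 0 with no replicate block and 0 to 5 when 1 array was left out (0 without array 1, 1 without array 2 and 1 without array 3). The median ratio of the subunit genes was 0.22 with median centring and 0.0441 to 0.169 with 1 array left out. Each fit with 1 array left out gives more weight to the array left alone in its dye orientation. All 35 have a mean intensity above the median gene, and only 5.82% of all genes are brighter than their median. Loess removes trends with intensity and median centring does not. The part of intensity in the higher median ratio was not tested. The median of all genes lay between −0.0199 and 0.0305.

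Ratios below 0 turned above it for Ndufs3 (0.0502), Ndufb7 (0.0677), Ndufa2 (0.0693) and Ndufa5 (0.0709) with median centring, for Ndufb7 (0.0223), Ndufa2 (0.0418) and Ndufa5 (0.0150) with the series table, for Ndufa2 with processed signals (0.0015) and for Ndufa5 with the mean of its probes (0.0178). With 1 array left out, Ndufa2 lay between −0.132 and 0.0422, above 0 without array 3, and Ndufa5 between −0.167 and 0.0910, above 0 without array 2 and without array 3. The cause was not tested.

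For sex, 1 subunit gene, Ndufs1, passed with no replicate block, and 0 to 1 passed with 1 array left out, Ndufa8 without array 2. The median sex difference was −0.19 to −0.03 with 1 array left out. The number of arrays limits all counts.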
